A study of Mus musculus with 38 samples.

Results

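CREB sites of mouse hepatocytes given glucagon and corticosterone together were compared with CREB sites of untreated hepatocytes. The comparison took the 2 deposited site lists whose names state these treatments, 1 per group, and they rest on 3 of the 38 samples of the series. The series maps histone acetylation and transcription factor binding by chromatin immunoprecipitation with sequencing in liver of fed and fasted mice and in hepatocytes. The group given both hormones had 2 samples of primary hepatocytes from C57BL/6 mice, treated with 10 nM glucagon and 1.7 uM corticosterone for 1 h. The untreated group had 1 sample of the same kind of cells. All 3 samples were isolated by collagenase perfusion, crosslinked, sonicated and precipitated with the same rabbit monoclonal antibody to total CREB. The sources used here do not say whether untreated cells received vehicle, whether the 2 treated samples came from separate mice, or how old and of which sex the mice were. The lists hold no expression values, so the cell type was not checked against markers.

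CREB is a leucine zipper transcription factor that binds cAMP response elements. Glucagon raises cAMP in hepatocytes and activates protein kinase A, which phosphorylates CREB and lets it recruit coactivators such as CBP. Corticosterone is the main glucocorticoid of mice; it binds the glucocorticoid receptor (GR), which then enters the nucleus and binds glucocorticoid response elements. Both hormones rise in fasting and act on liver genes of glucose production. The labels give these as the treatments, and the comparison asks how CREB sites differ when both are present.

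The list of cells given both hormones held 42090 sites over 31.2 Mb and that of untreated cells 47596 sites over 27.6 Mb. Median width was 652 bp with both hormones and 464 bp in untreated cells. Each site carries the authors' highest tag density, a signal whose scaling is not stated, so it served only to rank sites within a list, with rank 1 the densest. The median z-score of the authors was 18.8 with both hormones and 14.1 in untreated cells. The lists also differ in how they were made: the name of the list for both hormones pairs 2 libraries, and that of the untreated list pairs 1 library with itself. The number of sites was 78.1% of the highest running number with both hormones and 99.6% in untreated cells. What removed the missing numbers is not stated, and its part in the results was not tested. No read counts come with the lists, which leaves the sequencing depth unknown. Each group has 1 list and no value per library, hence neither a spread over replicates nor a test of the treatment. Every difference below is one between lists, and the 95% intervals cover counting error only; neighbouring sites are not independent, so they are too narrow.

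About 6 in 10 CREB sites were common to the lists. With the untreated list reduced to its 42090 densest sites, 25355 of the 42090 sites of cells given both hormones shared at least 1 base with an untreated site (60.2%, Wilson interval 59.8 to 60.7). Conversely, 26119 of the 42090 untreated sites shared a base with a site of the treated cells (62.1%, 61.6 to 62.5). That left 16735 sites with both hormones only (39.8% of the list) and 15971 sites of untreated cells only (37.9%). Sites of 1 list only were narrow. With both hormones their median width was 444 bp, against 822 bp for matched sites, and in untreated cells it was 345 bp, against 674 bp for matched sites. Without the reduction, 16541 sites with both hormones (39.3%) had no untreated site, and 21234 untreated sites (44.6%) had no site with both hormones.

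Strong sites were seldom missing from the other list, and where they were, the missing ones were mostly those of treated cells. Of the 1000 densest sites with both hormones, 21 were absent from the whole untreated list, and of the 1000 densest untreated sites 0 were absent from the whole list with both hormones (upper bound of the Wilson interval 0.383%). Among the 5000 densest the counts were 314 with both hormones (6.28%, interval 5.64 to 6.99) and 14 in untreated cells (0.280%, 0.167 to 0.469). Among the 10000 densest they were 929 and 210, for both hormones and untreated cells. The untreated list is the longer one, which gives the treated sites more regions to match. The treated list has wider sites and covers 31.2 Mb against 27.6 Mb, which gives untreated sites more sequence to match. The part of either in these counts was not tested. At the weak end most sites of either list had no partner, with 75.4% of the treated sites and 79.5% of the untreated sites of ranks 30001 to 42090 absent from the other list.

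**Figure D1:**
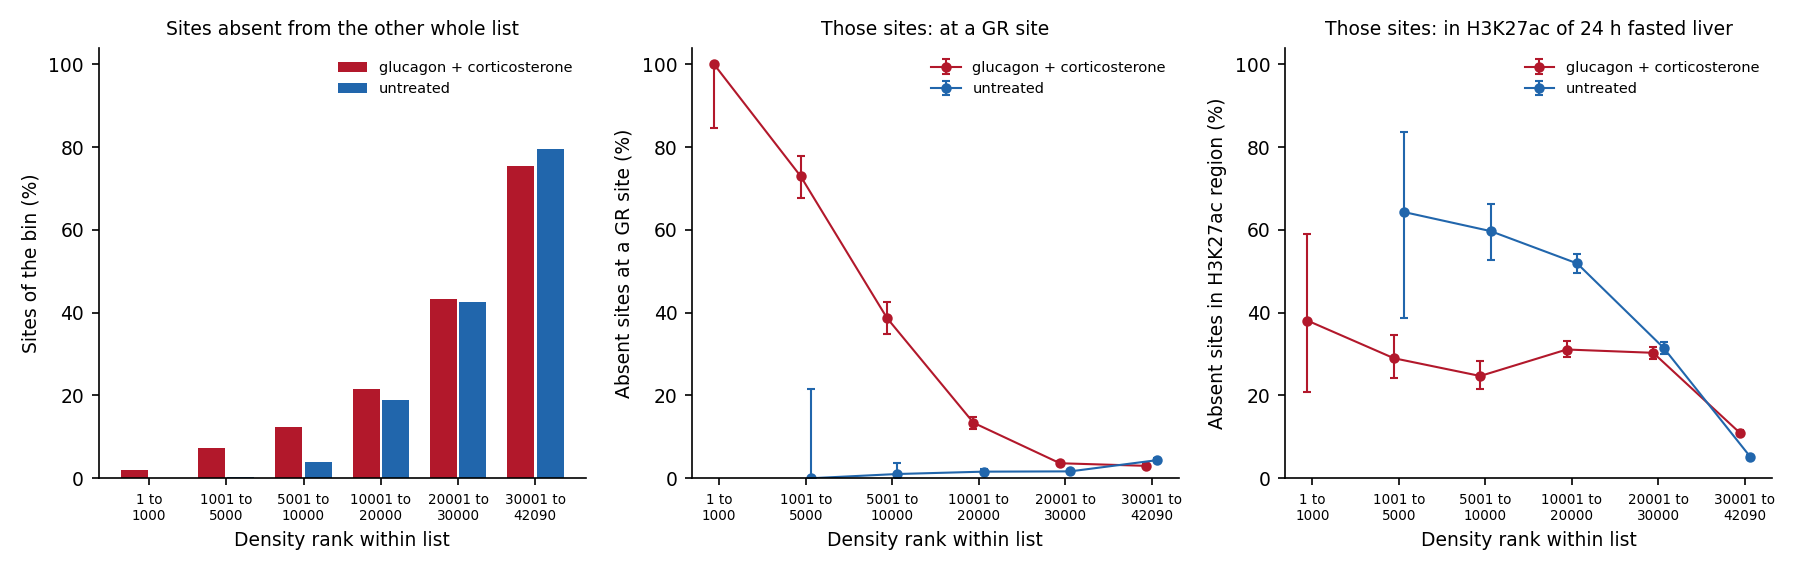
CREB sites by density rank within their list, for cells given both hormones (red) and untreated cells (blue). The left panel plots the percentage of each rank bin absent from the other whole list; the middle and right panels plot, for those absent sites, the percentage at a GR site and in an H3K27ac region of 24 h fasted liver, with 95% Wilson intervals. In ranks 1001 to 5000, 73.0% of the absent sites with both hormones and 0% of the 14 absent untreated sites lie at a GR site.

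Down to rank 20000, sites with both hormones that the untreated list lacked lay at GR sites more often than treated sites in both lists. GR sites are those of hepatocytes given the same hormones, precipitated with GR antibodies in separate libraries. All 21 such sites within rank 1000 overlapped a GR site, as did 214 of 293 in ranks 1001 to 5000 (73.0%, interval 67.7 to 77.8) and 238 of 615 in ranks 5001 to 10000 (38.7%, 34.9 to 42.6). Untreated sites missing with both hormones had 0 of 14 in ranks 1001 to 5000, 2 of 196 in ranks 5001 to 10000 (1.02%, 0.280 to 3.64), and 30 of 1886 in ranks 10001 to 20000 (1.59%, 1.12 to 2.26). For the treated cells, the share in ranks 10001 to 20000 was still 13.4% (289 of 2155). In ranks 30001 to 42090 the order turned, with 2.99% of the treated-only sites and 4.36% of the untreated-only sites at a GR site. Treated sites that the untreated list also held stood at 45.5% in ranks 1 to 1000 and 38.9% in ranks 1001 to 5000. They stood at 17.8% in ranks 5001 to 10000 and 7.30% in ranks 10001 to 20000. Untreated sites in both lists stood at 16.7% in ranks 1001 to 5000, 18.9% in 5001 to 10000 and 12.3% in 10001 to 20000. Over the whole class at equal length the shares were 7.64% with both hormones only (7.25 to 8.05) and 3.27% in untreated cells only (3.00 to 3.56), a difference of 4.37 percentage points (Newcombe interval 3.89 to 4.86). Sites in both lists stood at 13.9%, and all 42090 sites at 11.4% with both hormones and 9.90% in untreated cells.

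The H3K27ac mark, an acetylated histone found at active promoters and enhancers, showed another order. In the list of 24 h fasted liver, H3K27ac regions overlapped 29.0% of the treated-only sites of ranks 1001 to 5000 (24.1 to 34.5) and 64.3% of the untreated-only ones (38.8 to 83.7). In ranks 5001 to 10000 the shares were 24.7% with both hormones only (21.5 to 28.3) and 59.7% in untreated cells only (52.7 to 66.3), and in ranks 10001 to 20000 they were 31.1% and 51.9%, again for both hormones and untreated cells. Treated sites of ranks 5001 to 10000 that the untreated list also held were acetylated at 67.4%. Averaged over all ranks at equal length the shares were 19.4% for both hormones only and 18.5% for untreated only, and sites of ranks 30001 to 42090, with 11.0% and 5.24% in that order, are the most numerous in each class. Widths differed too: treated-only sites of ranks 5001 to 10000 had a median of 813 bp and untreated-only ones 641 bp. The part of width in these shares was not tested within rank bins.

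The 5 densest sites of treated cells missing from the whole untreated list all overlapped a GR site and a glucagon CREB site. The first lay on chromosome 7 from 107827639 to 107828984 in build mm9, at rank 108 with both hormones and rank 403 with glucagon alone. The second lay on chromosome 2 from 65064129 to 65065982, at rank 109 with both hormones and rank 919 with glucagon; it was also in the CREB list of fasted liver and not in that of fed liver. The others lay on chromosome 15 from 95734270 to 95735895 (rank 163 with both hormones, 727 with glucagon), chromosome 19 from 53494973 to 53496348 (rank 322 with both hormones, 173 with glucagon) and chromosome 10 from 89183213 to 89184592 (rank 499 with both hormones, 7971 with glucagon). The site on chromosome 10 is the one of the 5 whose rank differed most between both hormones and glucagon, and its GR site was the 52nd densest of the GR list (rank 52 of 11892).

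The 5 densest untreated sites missing from the list with both hormones were weaker, and 0 of the 5 overlapped a GR site. The first, on chromosome 6 from 47600583 to 47601153, had rank 1388 and overlapped no region of any other list used here. Its z-score of 14.4 was low beside the 31.9 to 74.8 of the other 4. Those had ranks 3775 to 3893 and lay on chromosome 11 from 50010480 to 50012576, chromosome 6 from 37583279 to 37583947, chromosome 19 from 47141792 to 47142512 and chromosome 19 from 33191395 to 33192030. The glucagon list held 3 of the 5.

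The order of the sites that both lists held also differed. At equal length, 23352 sites paired 1 to 1, which is 92.1% of the treated sites with an untreated partner; the rest overlapped more than 1 site on either side. Over these pairs the ranks had a Spearman coefficient of 0.73, given as a description. It was 0.58 over the 3111 pairs at a GR site and 0.79 over the 20241 pairs elsewhere. A pair was said to have gained when its untreated rank was at least 4 times its rank with both hormones, and to have lost in the opposite case; only a pair within ranks 1 to 10522 of the list where it ranks higher can do either. With both hormones, 1032 pairs gained (4.42% of all pairs) and 42 lost (0.180%). Ranks are relative to the other sites of a list. The median rank fold, the untreated over the both-hormones rank, was 0.787 for pairs away from GR sites.

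**Figure D2:**
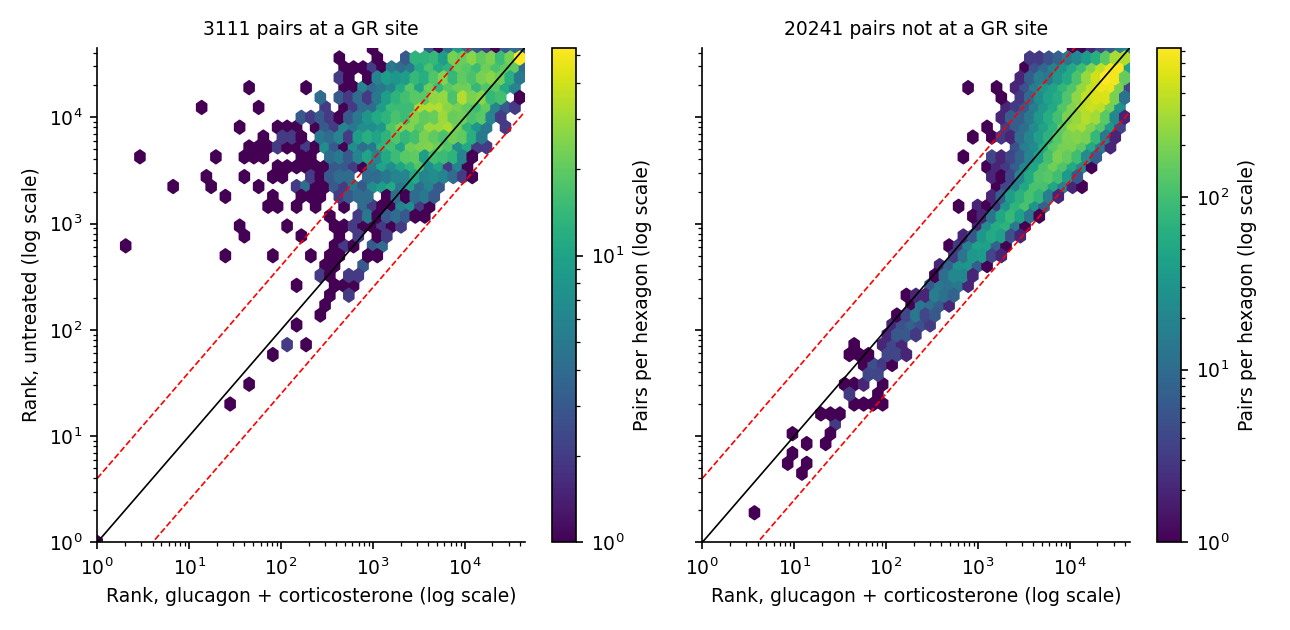
Density rank with both hormones (x axis, log scale) and in untreated cells (y axis, log scale) for CREB sites paired 1 to 1, split by overlap with a GR site; colour gives pairs per hexagon, the black line equal ranks and the red dashed lines a 4-fold difference. Of the 1032 pairs above the upper dashed line, 896 are among the 3111 pairs at a GR site in the left panel, and 136 among the 20241 other pairs in the right panel.

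Of the 1032 gained pairs, 896 overlapped GR (86.8%, interval 84.6 to 88.7), compared with 1 of the 42 lost pairs (2.38%, 0.422 to 12.3) and 2214 of the 22278 pairs that did neither (9.94%, 9.55 to 10.3). Of the 7692 pairs that did neither and had ranks 1 to 10522 with both hormones, 19.4% did (18.5 to 20.3). Their median rank with both hormones was 5634, against 1977 for the gained pairs, so the ranks are not matched. Counted the other way, 28.8% of the pairs at a GR site gained, and 0.672% of those elsewhere. These shares also count pairs beyond rank 10522 with both hormones, which cannot gain. Within ranks 1 to 10522, 896 pairs at a GR site gained and 1493 did neither, against 136 and 6199 elsewhere. The overlap grew with the size of the gain. It was 98.0% for the 408 pairs with a rank fold of 8 or more, 79.5% for folds of 4 to 8, 48.0% for 2 to 4, 14.4% for 1 to 2 and 4.91% for pairs that fell by less than 2-fold. Strong sites are wide, so pairs were also split by rank: where the better of the ranks was within 5000, the share at GR was 83.2% for folds of 4 to 8, 56.9% for 1 to 2 and 7.72% for pairs that fell by less than 2-fold. With all sites reduced to 500 bp around their midpoints, 1100 pairs gained and 85.5% of them overlapped a GR site.

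**Figure D3:**
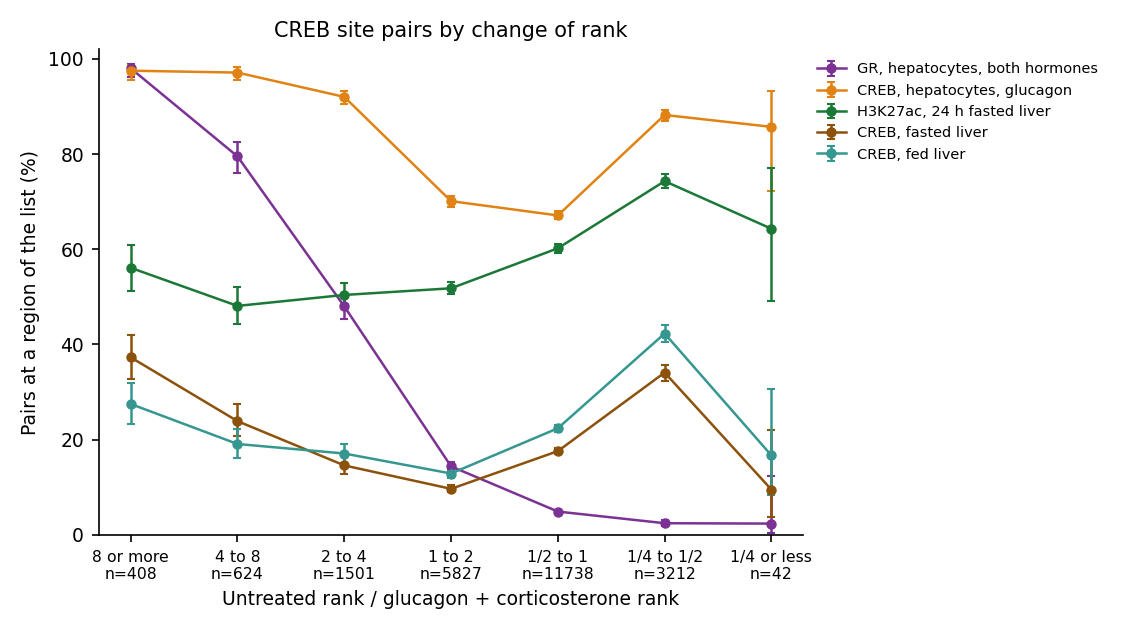
Percentage of CREB site pairs that overlap a region of 5 other lists, by the ratio of the untreated rank to the rank with both hormones, with the largest gains at the left and 95% Wilson intervals. Overlap with GR goes from 98.0% for gains of 8-fold or more to 2.38% for losses of at least 4-fold, while overlap with H3K27ac of fasted liver is 56.1% and 64.3% in those bins.

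Gained sites were wider with both hormones. Their median width was 1167 bp with both hormones and 647 bp in untreated cells, and 1020 of 1032 (98.8%) were wider with both hormones. Among pairs that neither gained nor lost, 68.3% were wider with both hormones, and among the lost pairs 14 of 42. The median rank of the gained pairs was 1977 with both hormones and 14822 in untreated cells, and that of the lost pairs 18088 with both hormones and 4211 in untreated cells. Width and density come from the same lists as the ranks, so these values are a description only.

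The share of gained pairs and the median rank fold were higher at denser GR sites. Where the densest overlapping GR site was among the first 1000 of the GR list, 450 of 651 pairs gained (69.1%, interval 65.5 to 72.6), with a median rank fold of 6.79. For GR ranks 1001 to 3000 the share was 30.5% (27.9 to 33.3) with a median fold of 2.40, and for ranks 3001 to 6000 it was 9.08% (7.56 to 10.9) with a median fold of 1.36. Below that, 0 of 177 pairs gained and the median fold was 0.982. These shares also count pairs beyond rank 10522 with both hormones, which cannot gain. How many such pairs each range of GR ranks holds was not counted, so the shares do not separate GR density from the room to gain. Many of the strongest GR sites lay at a CREB site in untreated cells too. In lists cut to 28229 sites, the length of the glucagon list, 91.9% of the 1000 densest GR sites were at a CREB site with both hormones, 83.4% with glucagon alone and 73.7% in untreated cells. For the 5892 weakest GR sites the shares were 4.12% with both hormones, 7.84% with glucagon and 1.68% in untreated cells.

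**Figure D4:**
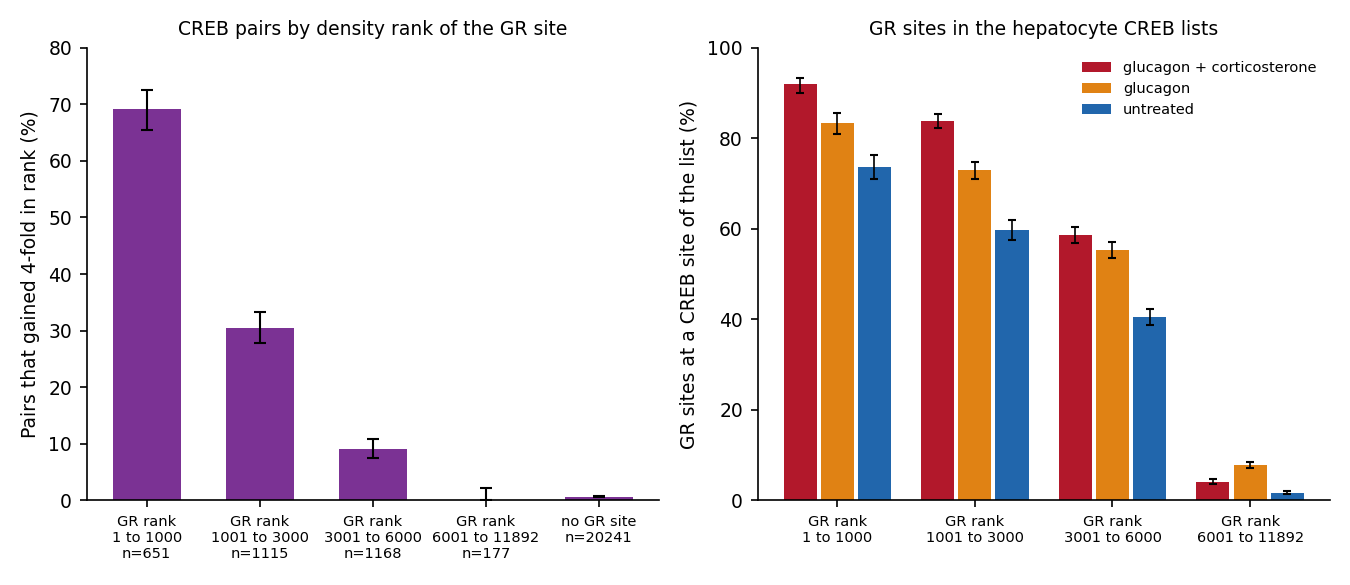
Left, the percentage of CREB site pairs that gained at least 4-fold in rank with both hormones, by the density rank of the overlapping GR site; right, the percentage of GR sites at a CREB site of each hepatocyte list, all cut to 28229 sites. Error bars are 95% Wilson intervals. The share of gained pairs is 69.1% at the 1000 densest GR sites and 0.672% where there is no GR site. The left panel also counts pairs beyond rank 10522 with both hormones, which cannot gain.

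Single sites show the size of these shifts. The largest gain lay on chromosome 4 from 150058545 to 150060125, at rank 3 with both hormones, rank 293 with glucagon and rank 4099 in untreated cells. It overlapped the densest site of the whole GR list. The second lay on chromosome 8 from 10856692 to 10858098, at rank 15 with both hormones, 50 with glucagon and 12496 in untreated cells. On chromosome 9 from 48531271 to 48532482 the rank was 47 with both hormones, but 11571 with glucagon and 18034 in untreated cells, so with glucagon alone the site was far down the list. Its GR site had rank 6. The remaining 2 of the 5 lay on chromosome 4, from 150129163 to 150130449 at rank 6 with both hormones, 46 with glucagon and 2287 in untreated cells, and from 35172965 to 35174463 at rank 2 with both hormones, 5 with glucagon and 641 in untreated cells. All 5 overlapped a GR site, H3K27ac regions of fed and of fasted liver, and a CREB site of fasted liver.

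Losses were shallow. The 5 largest had ranks of 11096 to 23715 with both hormones and 2138 to 4872 in untreated cells. The largest loss was a rank fold of 0.181, on chromosome 6 from 91465549 to 91466351. That site had rank 13335 with both hormones, 6450 with glucagon and 2413 in untreated cells. None of the 5 overlapped a GR site, and 4 of the 5 lay in H3K27ac regions of fed and of fasted liver. At the very top, a site on chromosome 7 from 52972710 to 52974278 kept rank 1 with both hormones, with glucagon and in untreated cells. A site on chromosome 8 from 126472361 to 126474149, the one of the 5 densest shared sites with no GR overlap, stood at rank 4 with both hormones, 2 with glucagon and 2 in untreated cells. The other 3 of those 5 had ranks 2, 3 and 5 with both hormones and 641, 4099 and 1874 in untreated cells, in that order. The one at rank 5, on chromosome 8 from 41743530 to 41746390, overlapped 2 untreated sites and was not a 1 to 1 pair, so it was not ranked among the gains.

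Most gained sites were also present with glucagon alone. The glucagon list, from 2 samples given 10 nM glucagon for 1 h, held 1004 of the 1032 gained sites (97.3%, interval 96.1 to 98.1), 85.7% of the lost ones and 72.6% of the others. That list has 28229 sites and favours strong sites: of the pairs of ranks 1 to 10522 with both hormones that neither gained nor lost, it held 97.8%. For 786 gained pairs a rank within 28229 could be read in all 3 lists, and the median was 1558 with both hormones, 2805 with glucagon and 11973 in untreated cells. The glucagon rank lay between the others for 630 of the 786 (80.2%), and for 6603 of the 14054 pairs that did neither (47.0%). Pairs chosen for ranks far apart in the outer lists leave more room for a rank between them, so no pattern is read from this contrast. For 32 of 33 lost pairs it lay between them too, with medians of 15112 with both hormones, 9882 with glucagon and 3501 in untreated cells. Because these values share the lists that defined gain and loss, they are a description.

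**Figure D5:**
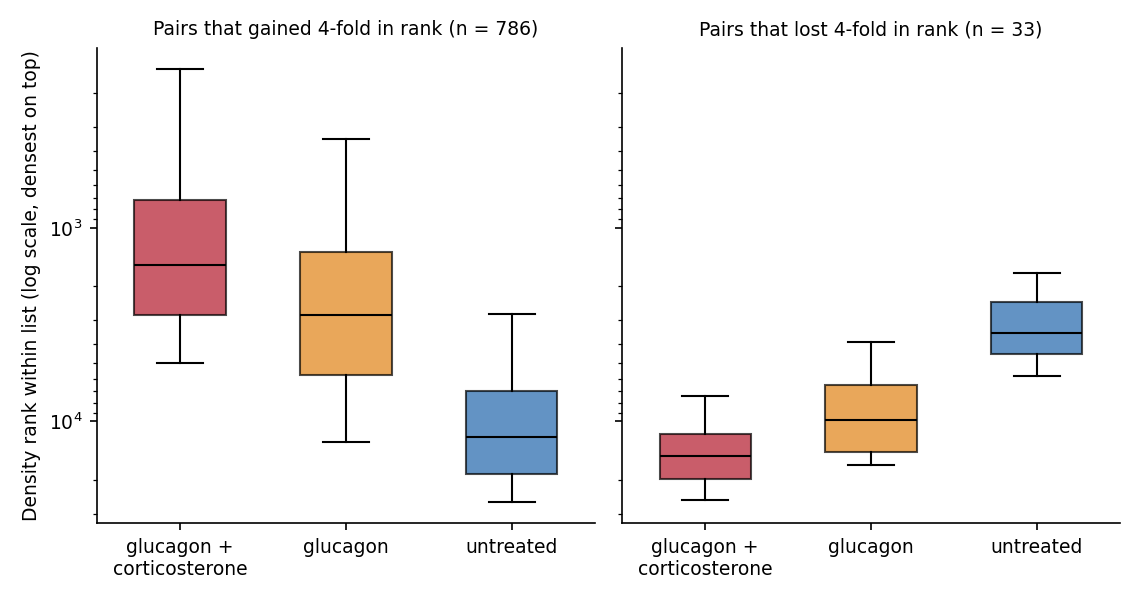
Density ranks (log scale, densest on top) in the 3 hepatocyte CREB lists for pairs that gained (left, n = 786) or lost (right, n = 33) at least 4-fold in rank with both hormones and lie within the first 28229 sites of each list. Boxes span the quartiles with the median, and whiskers the 5th to 95th percentile. The median rank of the gained pairs is 1558 with both hormones, 2805 with glucagon and 11973 in untreated cells.

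The gained sites differed in the step at which their rank moved. Of the 786, 371 moved 4-fold or more between untreated and glucagon but not between glucagon and both hormones, with a median rank of 1370 with both hormones, 1606 with glucagon and 12101 in untreated cells. Another 112 moved 4-fold between glucagon and both hormones but not before, with medians of 986 with both hormones, 7981 with glucagon and 10872 in untreated cells. A further 35 moved 4-fold at each step, and 268 at neither. GR overlap was high in all of these, at 89.2% for the step from untreated to glucagon (interval 85.7 to 92.0), 97.3% for the step from glucagon to both hormones (92.4 to 99.1), 100% for the 35 and 82.5% for the rest. The GR sites were denser where the step came with both hormones, with a median GR rank of 344, against 901 where it came with glucagon. H3K27ac regions of 24 h fasted liver overlapped 82.1% of the sites that stepped with both hormones and 46.9% of those that stepped with glucagon. The GR list comes from cells given both hormones, and GR sites of cells given glucagon alone were not analysed here.

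Sites with both hormones only were more often in the glucagon list than sites of untreated cells only. Of the 16735 sites with both hormones only, 3272 were in the glucagon list (19.6%, interval 19.0 to 20.2), against 1209 of the 15971 sites of untreated cells only (7.57%, 7.17 to 7.99). Both classes lay below their whole lists, of which the glucagon list held 52.3% with both hormones and 48.4% in untreated cells, and below the sites in both lists, at 74.0%. For sites absent from the whole other list, the shares in ranks 1001 to 5000 were 70.6% with both hormones and 71.4% in untreated cells (10 of 14). In ranks 5001 to 10000 they were 68.5% and 34.7%, in that order. The glucagon list, like that for both hormones, pairs 2 libraries, and the part of list making was not tested. The 3272 overlapped GR sites at 19.5% (18.2 to 20.9) and the other 13463 at 4.76% (4.41 to 5.13), but they were also the denser ones, with a median rank of 19795 against 33319. Of the 1279 sites with both hormones only that lay at GR sites, 638 were in the glucagon list (49.9%).

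In liver, gained pairs were found more often in the fasted than in the fed CREB list, and pairs that neither gained nor lost more often in the fed list. CREB sites of 24 h fasted liver overlapped 29.2% of the gained pairs (26.5 to 32.0), and those of fed liver 22.4% (19.9 to 25.0). For pairs that did neither, the shares were 17.7% in fasted and 22.4% in fed liver. The order between classes turned within ranks 1 to 10522 with both hormones. Pairs there that did neither had 43.6% in fasted (42.5 to 44.7) and 50.4% in fed liver (49.3 to 51.5). Both shares were above those of the gained pairs. Ranks were not matched: the median with both hormones was 5634 for these pairs and 1977 for the gained ones. In untreated cells it was 4460 and 14822, in that order. Counting the pairs that 1 liver list held and the other lacked, 127 gained pairs were in the fasted list and 57 in the fed list, so the fasted list took 69.0% of them (62.0 to 75.3). Of the other pairs, 469 were in the fasted list and 1513 in the fed list, which is 23.7% for the fasted list (21.8 to 25.6). With the liver lists cut to equal length the fasted list took 69.9% of the gained pairs and 24.3% of the others. Among the other pairs with ranks 1 to 10522 with both hormones, a range that also holds every gained pair, it took 25.9% (23.3 to 28.6). The names of the liver CREB lists print 2 library numbers, while each group has 3 samples. Whether all 3 entered the lists is not stated.

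H3K27ac in liver also lay to the fasted side at gained pairs. The acetylated regions of liver covered 51.3% of the gained pairs after a 24 h fast and 45.3% in the fed state, and pairs that did neither at 59.4% and 58.7%, also for fasted and fed liver. Gained pairs in 1 of those lists numbered 86 in the fasted and 24 in the fed list (78.2% fasted, interval 69.6 to 84.9). For pairs that did neither they numbered 941 and 788 (54.4% fasted, 52.1 to 56.8). The contrast was smaller within a range of ranks: of the other pairs with ranks 1 to 10522 with both hormones, 339 were in the fasted and 204 in the fed list (62.4% fasted, 58.3 to 66.4). With these lists at equal length the fasted shares were 74.8% for the gained pairs (65.6 to 82.2), 48.7% for the other pairs and 58.6% for those of ranks 1 to 10522 (54.4 to 62.7). The gained pairs away from GR sites, 136 in number, had only 11 in the fasted and 6 in the fed list (64.7% fasted, 41.3 to 82.7). Each liver state has 1 list, so all of these counts describe lists and cannot test the states. Of these 136, 36.0% had a GR site within 10 kb (49 sites), against 14.4% of the 6199 pairs of ranks 1 to 10522 that neither gained, lost nor touched a GR site.

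The strongest sites of the lists differed in what they overlapped. Of the 1000 densest sites with both hormones, 417 were not among the 1000 densest untreated sites, and the converse count was also 417. Among the 5000 densest the counts were 1941 with both hormones and 1926 in untreated cells. Of the 1000 densest sites with both hormones, 46.6% overlapped GR (43.5 to 49.7), compared with 7.30% of the 1000 densest untreated sites (5.85 to 9.08). Fed liver CREB sites overlapped 77.8% of the 1000 densest with both hormones and 99.4% of the 1000 densest untreated sites, and fasted liver CREB sites 82.2% and 98.7%, in the same order. Phospho-CREB sites of fed liver overlapped 60.1% of the densest sites with both hormones and 81.5% of the untreated ones, and phospho-CREB sites of fasted liver 44.2% and 48.9%. Among the 10000 densest, GR overlap was 31.4% with both hormones and 16.5% in untreated cells, a difference of 14.9 percentage points (13.7 to 16.1). Overlap with fasted-liver CREB was then 40.2% with both hormones and 39.8% in untreated cells, a difference of 0.340 points (-1.02 to 1.70). The intervals of both differences treat the sets of 10000 sites as separate. Most sites are common to the sets: 3188 with both hormones and 3130 untreated ones had no partner. The intervals are therefore no test of a difference.

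Gained sites stood close to each other. Another gained site lay within 10 kb of 27.8% of them (25.2 to 30.6), whereas a gained site lay within 10 kb of 4.39% of the 7692 pairs of ranks 1 to 10522 that did neither (3.96 to 4.88). Likewise 21.5% of the gained sites and 4.32% of those other pairs had, within 10 kb, one of the 929 sites of the first 10000 with both hormones that the untreated list lacked. With gaps of up to 50 kb, a grouping chosen after the values were seen, 18 clusters held 4 or more gained sites, 81 in all. The largest, with 7 gained sites each, spanned 167542018 to 167686750 of chromosome 2 and 150058545 to 150175504 of chromosome 4, and all 14 sites overlapped a GR site. On chromosome 4 the 7 sites had ranks of 3 to 2418 with both hormones and 2287 to 14756 in untreated cells, 6 of the 7 lay in an H3K27ac region of fasted liver, and the CREB lists of liver held 4 in the fasted and 3 in the fed state. On chromosome 2 the ranks were 24 to 1860 with both hormones and 471 to 9270 in untreated cells, 4 of the 7 were acetylated there, and the liver CREB lists held 5 in the fasted and 3 in the fed state. Another cluster, of 6 sites over 53.7 kb on chromosome 3 from 52404025 to 52457680, had ranks of 286 to 3161 with both hormones and 5181 to 23414 in untreated cells, with 2 of the 6 in the fasted and 0 in the fed CREB list of liver. Some neighbours nearly abut, such as 52420999 to 52422068 and 52422075 to 52423457 in that cluster. They count as separate sites in the clusters and in the shares within 10 kb. Whether they are parts of 1 broader region was not tested. No gene was assigned to the clusters, since the annotation supplied here belongs to a different genome build.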

How the data were processed

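Peak lists as the authors deposited them were used. CASAVA 1.8 and build mm9 are named, per the submitters' processing notes; the names of the H3K27ac lists speak of hotspots and those of the other lists of a false discovery rate, with no caller version. The sources used here do not name the aligner or its settings. The authors' deposited highest density per region is a signal, and their z-score is a score; both have an unstated scaling, and the deposited average density was not used. The authors' deposited p-value was not used, and the running number only described the lists. Lists were matched to samples through the library numbers in their names; 2 lists, with 8 value columns, matched no sample and were not used. Positions are as the lists give them, and whether they count from 0 or 1 is not stated.

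Sites with at least 1 base in common were matched. The main comparison cut the untreated list to 42090 sites by density. Shares have 95% Wilson intervals and differences Newcombe intervals. The members, lists and rules were chosen with earlier results of these data known. Named sites were, per class, the 5 densest or the 5 with the largest rank change within the first 5000 ranks. Matching and ranking were tested on simulated data of 42090 sites a list and returned all 200 planted gains and all 200 planted losses. No sequence is printed and planned gene and motif searches were not run, since the gene and promoter tables at hand are of build GRCm38.p6. Figures were drawn with matplotlib 3.10.9 and values computed in Python 3.11.15 with SciPy 1.17.1, pandas 2.3.3 and numpy 2.4.6.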

Additional observations from a re-analysis of the deposited data

How the results depend on the processing

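Over 9 alternative settings and 12 results, 55 of 108 values stayed within the interval or the 1.5-fold limit of the main value and 53 moved, none of them a count of gained or lost pairs. Part of this tally is fixed in advance. Cutting the GR list can move GR shares only, and both settings cut by z-score give the same overlaps and classes. The number of gained pairs ran from 715 to 1172 and of lost pairs from 29 to 47. In each setting the GR share was higher with both hormones only than in untreated cells only. The order of the H3K27ac shares was not stable, and the cause was not tested. Below, the pair of overlap shares gives sites with both hormones at an untreated site, then the converse; GR and H3K27ac shares are for sites with both hormones only, then untreated only; the glucagon share is for sites with both hormones only.

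Sharing 50% of the shorter site gave overlap shares of 59.1% and 60.7%, an untreated-only GR share of 2.86%, H3K27ac shares of 16.3% and 16.5%, and a glucagon share of 19.0%. Windows of 500 bp gave overlaps of 59.6% and 60.3%, GR shares of 4.52% in untreated only and 13.2% in both lists, H3K27ac shares of 13.8% and 14.3%, and a glucagon share of 20.5%. Gaps of up to 500 bp gave overlaps of 64.2% and 65.9%, GR shares of 8.41% and 4.25%, with 14.8% in both lists, an untreated-only H3K27ac share of 16.7%, and a glucagon share of 21.0%. Whole lists gave an untreated overlap of 55.4%, GR shares of 7.21% and 4.17%, and an untreated-only H3K27ac share of 14.0%. Cutting by z-score, with density or z-score ranks, gave overlaps of 58.2% and 59.7%, GR shares of 7.20% and 4.57%, with 14.4% in both lists, H3K27ac shares of 20.7% and 14.4%, and a glucagon share of 20.3%. With z-score ranks the GR share of gained pairs was 81.5%. The upper 50% of each list gave overlaps of 72.8% and 74.3%, GR shares of 25.5% and 1.83%, with 17.0% in both lists and 92.3% of gained pairs, H3K27ac shares of 33.0% and 53.8%, and a glucagon share of 60.2%. The upper 50% of the GR list gave GR shares of 6.08% and 1.32%, with 13% in both lists. The z-score ranks and the upper 50% of the GR list were chosen after seeing the data.

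No paired analysis was possible because each group has 1 list and no value per library. Leaving out a replicate was not done for the same lack of values. Depth is unknown, so a site missing from a list was not called there, which does not show that CREB was absent.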

Other observations

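Chromosome X carried fewer of the sites with both hormones than of the untreated sites. At equal length it held 1046 of the sites with both hormones (2.49%) and 1434 of the untreated sites (3.41%), and of the sites of 1 list only it held 3.21% with both hormones and 5.70% in untreated cells. The share of pairs that gained 4-fold with both hormones ran from 2.97% on chromosomes 11 and X to 6.41% on chromosome 6, leaving out chromosome Y with 7 pairs. Chromosome 6 had 87 gained and 4 lost pairs, and chromosome 11, with 1614 pairs, had 48 gained and 4 lost.

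Phospho-CREB sites of liver overlapped fewer sites of either class than of the whole lists, where the shares at equal length were 4.02% with both hormones and 4.33% in untreated cells for fed liver, and 2.15% with both hormones and 2.42% in untreated cells for fasted liver. With both hormones only, 0.914% of the sites lay at a phospho-CREB site of fed liver (interval 0.781 to 1.07), and in untreated cells only 1.81% (1.61 to 2.03). For fasted liver the shares were 0.956% with both hormones only and 1.66% in untreated cells only. Among the gained pairs 4.94% lay at a fed and 4.36% at a fasted phospho-CREB site, and among pairs that did neither 6.06% at a fed and 2.80% at a fasted one. The pairs that did neither and had ranks 1 to 10522 with both hormones stood at 16.0% and 7.02%, for fed and fasted liver. The gained pairs were lower in both states, but ranks were not matched within that range.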
